A study of Mus musculus with 13 samples.

Results

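The cellular response to low oxygen was examined here through 35 mouse genes that lie outside glycolysis: the subunits of the transcription factor HIF, the enzymes and ligase components that control it, and genes commonly listed as its targets. The genes were taken by symbol, from a list drawn up with earlier results of these data known. Counts over the list are therefore descriptions and give no independent support. Each was represented by the probe set with the highest mean on its array type. All 35 were found among the 19938 genes of the Gene 1.0 ST arrays, where 31 had a mean high enough to be tested, out of 11963 tested genes. On the 430 2.0 arrays 34 were found among 18194 genes, and 28 were tested out of 10916. Bnip3l had no probe set assigned to it alone on the 430 2.0 type and was not analysed there.

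All samples came from B3, a mouse pre-B cell line, into which Ikaros proteins were introduced by retroviral transfer. Ikaros, the product of Ikzf1, is a zinc finger transcription factor of lymphocytes. In the inducible design, cells carried either HA-tagged Ikaros fused to ERt2, a ligand-binding domain that responds to 4-hydroxytamoxifen (Ikaros-ERt2), or a vector with ERt2 alone (vector-ERt2). Both constructs also carried an IRES-GFP marker. RNA was taken from 3 samples of Ikaros-ERt2 cells after 6 h of 4-hydroxytamoxifen, from 3 after 2 h, and from 3 samples of vector-ERt2 cells after 6 h, all on Gene 1.0 ST arrays. In the constitutive design, HA-tagged wild-type Ikaros or 159A, an Ikaros mutant that lacks DNA binding, was expressed with IRES-GFP, and RNA was taken 48 h after infection from 2 samples of each on 430 2.0 arrays. All 13 samples are thus transduced cells of 1 line, every inducible sample received 4-hydroxytamoxifen, and no vector sample at 2 h or Ikaros-ERt2 sample without 4-hydroxytamoxifen was analysed here. The 2 h and 6 h comparisons use the same vector-ERt2 arrays, and the 6 h against 2 h comparison uses the Ikaros-ERt2 arrays of both. The values are therefore set side by side and their agreement is not given as a result.

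In oxygenated cells, prolyl hydroxylases of the Egln family modify the alpha subunits of HIF, and the modified protein is recognised by the Vhl ubiquitin ligase and degraded. At low oxygen the alpha subunit escapes this modification, pairs with Arnt and binds DNA at hypoxia response elements with the core ACGTG or GCGTG. The targets include genes of mitophagy, protein oxidation in the endoplasmic reticulum, blood vessel growth, pH control and chromatin modification, and also some of the hydroxylases themselves. Control of Hif1a acts largely on its protein, which these RNA measurements do not show, and several of the targets also respond to other signals.

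Ikzf1 read 13.22 to 13.40 on the 6 Ikaros-ERt2 arrays, against 9.16, 9.25 and 9.39 on the vector-ERt2 arrays (log2 values). The labels of vector-ERt2 replicate 1 conflict, with inducible Ikaros in 1 field and the vector in the title. The title was followed, and the 9.16 belongs to that array. On the 430 2.0 arrays Ikzf1 reached 12.08 in Ikaros cells and read 11.82 and 11.61 in 159A cells, without overlap, and both kinds of cells carry an Ikaros transgene. Of 11 pre-B cell markers on the Gene 1.0 ST arrays 9 lay above the filter, with Rag1 and Rag2 below it, and on the 430 2.0 arrays all 10 stood clear of the lowest values. Of the markers of other cells on the Gene 1.0 ST arrays, 1 of 4 T cell genes (Cd3e), 0 of 5 myeloid genes, 0 of 1 erythroid gene and 2 of 4 fibroblast genes (Col1a1 and Col1a2) lay above the filter. On the 430 2.0 arrays 3 of 4 T cell genes were within 1 log2 unit of the lowest value, and so were 5 of 5 myeloid genes in Ikaros cells and 4 of 5 in 159A cells, 1 of 2 erythroid genes, and 3 of 4 fibroblast genes in Ikaros cells and 4 of 4 in 159A cells. The summed log2 level of the pre-B cell markers ran from 94.8 to 95.3 in Ikaros-ERt2 cells at 6 h, from 96.9 to 97.4 at 2 h and from 98.9 to 100.3 in vector-ERt2 cells. At 48 h it ran from 116.5 to 117.7 in Ikaros cells and from 112 to 114.1 in 159A cells, and that of the 5 myeloid genes from 11.9 to 11.92 in Ikaros cells and from 13.25 to 13.97 in 159A cells. The part of these shifts in the results below was not tested. In RNA from whole cultures, fewer cells expressing a gene and less RNA per cell cannot be told apart.

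Promoter windows from RefSeq (GRCm38.p6), reaching from 250 bases before to 50 bases after each transcription start, were found for 29 of the 35 genes, in 39 windows. ACGTG on either strand was in 48.7% of these windows, against 19.6% of all 32851 windows, and GCGTG was in 61.5% against 32.4%. A match to either core was in 74.4% of the windows of these genes, covering 25 genes, against 43.8% of all windows. The windows of these genes had a median GC content of 64.3%, against 52.7% for all windows, so the cores were counted in sequences of different base composition. TGGGAA, the core of Ikaros sites, was in 23.1% and 25.6%. A match describes letters only and does not show that a factor binds there. The windows of 6 genes that passed the tests below are printed as examples. Bnip3, Ero1a, P4ha1 and Ankrd37 changed between 2 h and 6 h, and Car9 and Car12 were lower at both times. Bhlhe40, which also changed between 2 h and 6 h, had no window. The 6 windows were chosen after the values were seen. They run 5′ to 3′ on the gene's strand, and capitals mark ACGTG or GCGTG read on either strand, so that CACGT and CACGC also appear. Bnip3 lies at chr7:138909457-138909756 on the minus strand, Ero1a at chr14:45318523-45318822 on the minus strand and P4ha1 at chr10:59323046-59323345 on the plus strand. Ankrd37 lies at chr8:45999801-46000100 on the minus strand, Car9 at chr4:43506776-43507075 on the plus strand and Car12 at chr9:66713436-66713735 on the plus strand.
Bnip3: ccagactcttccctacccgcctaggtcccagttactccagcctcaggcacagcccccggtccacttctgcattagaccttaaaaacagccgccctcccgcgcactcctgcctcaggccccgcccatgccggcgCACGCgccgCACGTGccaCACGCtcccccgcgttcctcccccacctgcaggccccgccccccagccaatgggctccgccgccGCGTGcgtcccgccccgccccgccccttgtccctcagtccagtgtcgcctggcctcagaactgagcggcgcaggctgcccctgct
Ero1a: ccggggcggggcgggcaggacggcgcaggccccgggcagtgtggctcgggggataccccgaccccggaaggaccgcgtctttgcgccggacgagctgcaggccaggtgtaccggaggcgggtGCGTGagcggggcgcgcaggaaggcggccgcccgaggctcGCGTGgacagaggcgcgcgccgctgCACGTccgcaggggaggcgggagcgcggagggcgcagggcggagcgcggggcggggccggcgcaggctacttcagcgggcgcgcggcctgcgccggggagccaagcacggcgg
P4ha1: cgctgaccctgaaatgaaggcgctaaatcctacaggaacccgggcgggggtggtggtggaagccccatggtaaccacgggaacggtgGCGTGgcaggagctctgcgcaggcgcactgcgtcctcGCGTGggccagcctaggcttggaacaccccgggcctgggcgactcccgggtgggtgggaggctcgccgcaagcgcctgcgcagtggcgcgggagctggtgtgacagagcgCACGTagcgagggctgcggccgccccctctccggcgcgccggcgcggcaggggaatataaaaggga
Ankrd37: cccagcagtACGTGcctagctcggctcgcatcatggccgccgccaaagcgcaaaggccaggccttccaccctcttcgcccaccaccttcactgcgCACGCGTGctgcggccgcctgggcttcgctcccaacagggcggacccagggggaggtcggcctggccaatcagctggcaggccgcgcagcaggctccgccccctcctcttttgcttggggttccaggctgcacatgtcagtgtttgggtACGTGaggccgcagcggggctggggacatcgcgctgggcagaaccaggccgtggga
Car9: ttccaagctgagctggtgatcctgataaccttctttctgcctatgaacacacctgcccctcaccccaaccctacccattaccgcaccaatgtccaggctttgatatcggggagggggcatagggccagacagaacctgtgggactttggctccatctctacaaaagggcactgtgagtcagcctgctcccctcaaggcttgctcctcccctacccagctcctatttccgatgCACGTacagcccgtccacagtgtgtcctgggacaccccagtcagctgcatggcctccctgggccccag
Car12: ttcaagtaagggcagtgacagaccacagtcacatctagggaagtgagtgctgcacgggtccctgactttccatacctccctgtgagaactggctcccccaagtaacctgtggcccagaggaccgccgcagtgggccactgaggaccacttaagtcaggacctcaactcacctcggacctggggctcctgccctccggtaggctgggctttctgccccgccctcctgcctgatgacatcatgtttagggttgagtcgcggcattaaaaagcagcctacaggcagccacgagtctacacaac

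The Bnip3 window held 5 matches, among them the palindrome CACGTG read on both strands, with first bases at positions -108 and -107 from the start. The Ero1a and P4ha1 windows held 3 matches each, and in P4ha1 the nearest began at position -16. The Ankrd37 window held 4, at positions from -241 to -6. The Car9 window held 1 match, at position -18, and the Car12 window held none, which says only that these letters are not in those 300 bases. Genes without a call in the inducible design also had matches. Fam162a had 1 of ACGTG and 5 of GCGTG, an Egln2 window 3 and 3, and a Wsb1 window 5 and 1. The windows of Hif1an, Vhl and Gbe1 had 0 of either. Whether matches go with the changes was not tested.

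In Ikaros-ERt2 cells after 2 h, 7 of the 31 tested genes had lower levels than in vector-ERt2 cells after 6 h, and 0 had higher levels. The groups differ in construct and in time of 4-hydroxytamoxifen, and the 2 cannot be told apart in this comparison. Across all tested genes 1.1% were called lower and 0.769% higher in this comparison, 1.86% in all (adjusted p below 0.05 over all genes). The 7 were the mitophagy genes Bnip3 and Bnip3l, the vessel growth factor gene Vegfa, the carbonic anhydrase genes Car9 and Car12, the transcriptional repressor gene Bhlhe40 and Ankrd37. The median log2 change of the 31 genes was -0.13, against -0.01 for all tested genes, with 9 positive and 22 negative changes. In 15 of the 31 every 2 h value was below every vector value, and in 2 every one was above, where 9.4% and 9.23% of all genes were arranged so. The 7 calls, and the values below unless a block is named, come from a fit without a block, called the main fit here. Alternatives for this comparison treated same-numbered samples as pairs. With the replicate number as a block over all 9 arrays, those at 6 h included, 10 of the 31 genes were lower and 0 higher. That fit called 263 of all tested genes, against 223 in the main fit. With this block Car9 was no longer called by limma (adjusted p = 0.06), and Ero1a (adjusted p = 0.0206), Stc2 (0.0259), Ddit4 (0.0283) and Kdm3a (0.0469) were added. With the block in a fit of the 2 h and vector-ERt2 arrays alone, 9 were lower and 0 higher, and 245 of all genes were called. Without the filter on low genes 3 were called, and 141 of all genes. With the lowest 60% of genes not tested and no block, 9 of 26 were lower and 0 higher, and 276 of all genes were called. The count was 2 without Ikaros-ERt2 2 h replicate 1, vector-ERt2 replicate 1 or vector-ERt2 replicate 3, 3 without vector-ERt2 replicate 2, and 4 without either of the other 2 h replicates. The fits without 1 array called 82 to 176 of all genes.

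After 6 h, Hif1a, the oxygen-regulated HIF subunit, was the 1 gene that was higher than in vector-ERt2 cells, and Car9 and Car12 were the 2 that were lower. All genes gave 2.58% higher and 3.2% lower calls, 5.78% in all. The median log2 change of the 31 genes was 0.09, against 0.00 for all genes, with 23 positive and 8 negative changes. In 4 of the 31 every 6 h value was above every vector value and in 3 every one was below, against 11% and 10.3% of all genes. The count of called genes was 1 without the filter, and it was 1 without Ikaros-ERt2 6 h replicate 1 or 2 or vector-ERt2 replicate 1 or 3, and 2 without either of the remaining 2 arrays.

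Between the Ikaros-ERt2 samples, 5 genes were higher at 6 h than at 2 h and 0 were lower, in a comparison where 0.376% of all genes were called higher and 0.527% lower, 0.903% in all. These were Bnip3, the disulfide oxidase gene Ero1a, the collagen prolyl hydroxylase gene P4ha1, Bhlhe40 and Ankrd37. The median log2 change was 0.22, against 0.01 for all genes, and 16 of the 31 genes had every 6 h value above every 2 h value and 0 had every one below, against 7.9% and 6.91% of all genes. In a limma fit of the 6 Ikaros-ERt2 arrays alone 0 of all 11963 genes were called, with 1301 at an unadjusted p below 0.05, among them 14 of the 31. Without 2 h replicate 1 limma called 0 of the 31 and 9 of all genes, with 1166 of all genes at an unadjusted p below 0.05, among them 17 of the 31. The count was 2 without 6 h replicate 3, 3 without 6 h replicate 1 or without 2 h replicate 2 or 3, and 4 without 6 h replicate 2. With the lowest 60% of genes not tested, 7 of 26 were higher and 0 lower, and 140 of all genes were called.

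**Figure D1:**
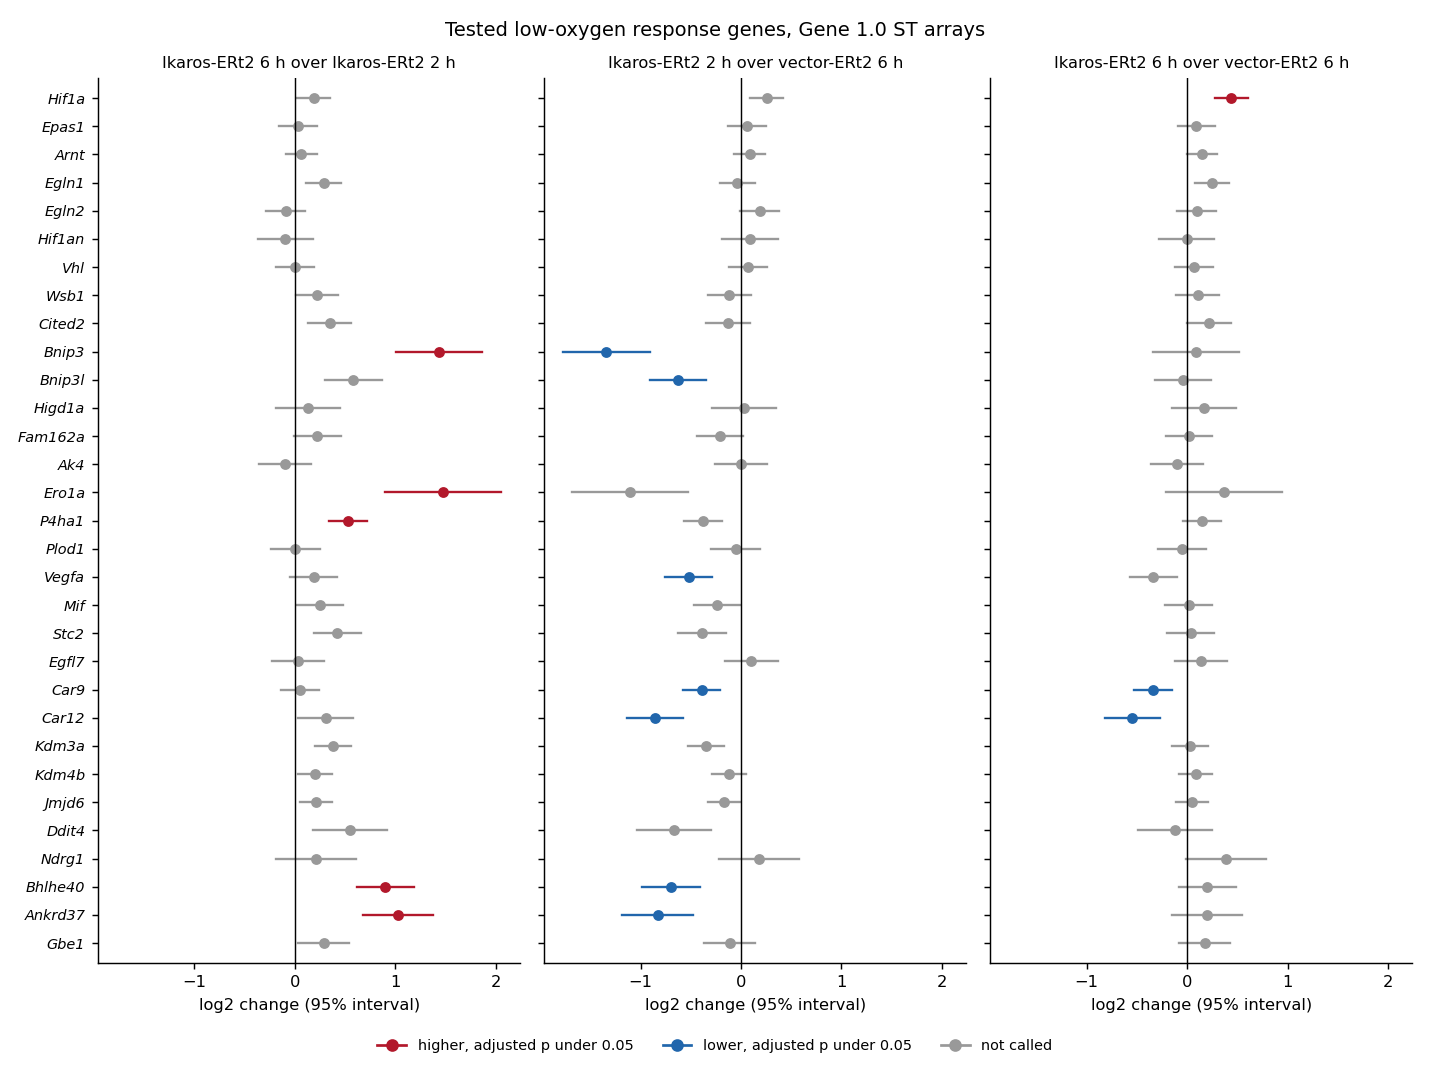
Log2 change of each tested gene in the 3 comparisons of the inducible design, as a point with its 95% interval, coloured by whether it was called at an adjusted p below 0.05. At 2 h against vector 7 genes are called lower, at 6 h against vector 1 is called higher and 2 lower, and at 6 h against 2 h 5 are called higher.

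Of the transcription factor subunits, Hif1a read 8.78, 8.81 and 8.70 at 6 h and 8.63, 8.45 and 8.65 at 2 h in Ikaros-ERt2 cells, against 8.39, 8.25 and 8.33 in vector-ERt2 cells (log2 values of the arrays, as throughout). The 3 groups did not overlap. Hif1a was 1.36-fold higher at 6 h than in vector-ERt2 cells (log2 change 0.44 ± 0.08 SE, 95% interval 0.27 to 0.61, adjusted p = 0.00658), and it passed the test in 14 of 14 alternative settings. Its change of 0.25 at 2 h over vector (adjusted p = 0.139) and its difference of 0.19 between 6 h and 2 h (adjusted p = 0.305) did not pass. Arnt, the constitutive partner of the alpha subunits, read 8.10, 8.02 and 8.02 at 6 h, 7.96, 7.92 and 8.06 at 2 h and 7.88, 7.86 and 7.96 in vector-ERt2 cells. Its 6 h values were all above the vector values, with a log2 change of 0.15 that did not pass (adjusted p = 0.282). Epas1, the second alpha subunit, lay between 5.34 and 5.64 on all 9 arrays, close above the filter, with overlapping groups.

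The oxygen-sensing enzymes and the turnover components gave no call in the inducible design. Egln1, the main prolyl hydroxylase acting on HIF and itself a known HIF target, read 8.50, 8.72 and 8.72 at 6 h and 8.43, 8.32 and 8.34 at 2 h in Ikaros-ERt2 cells, against 8.40, 8.36 and 8.43 in vector-ERt2 cells. The 6 h values were above all others, with log2 changes of 0.25 over vector (adjusted p = 0.0983) and 0.29 over 2 h (adjusted p = 0.128). Hif1an, which hydroxylates an asparagine of the alpha subunit and blocks its activity, read 8.12, 8.21 and 7.86 at 6 h, 8.25, 7.89 and 8.34 at 2 h and 8.13, 8.13 and 7.95 in vector-ERt2 cells. Vhl, the substrate-recognition subunit of the ubiquitin ligase, read 6.85, 6.99 and 6.72 at 6 h, 6.83, 6.90 and 6.83 at 2 h and 6.67, 6.89 and 6.78 in vector-ERt2 cells. For both genes the 3 groups overlapped, and the log2 changes lay between -0.09 and 0.09. Egln3 lay below the filter, at 4.09, 4.31 and 4.38 at 6 h, 4.21, 4.45 and 3.90 at 2 h and 4.44, 4.27 and 4.27 in vector-ERt2 cells, and was not tested. Egln2, Wsb1 and Cited2, a competitor of HIF for its coactivators, had log2 changes from -0.13 to 0.35 over the 3 comparisons.

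The mitophagy genes were lower at 2 h than in vector-ERt2 cells. Bnip3, which encodes a mitochondrial outer membrane protein that recruits the autophagy machinery, read 9.96, 10.58 and 10.52 at 6 h and 8.52, 8.98 and 9.27 at 2 h in Ikaros-ERt2 cells, against 10.12, 10.41 and 10.26 in vector-ERt2 cells. All 2 h values were below the other 6, and the 6 h and vector values overlapped. Bnip3 was 2.53-fold lower at 2 h than in vector-ERt2 cells (log2 change -1.34 ± 0.19, 95% interval -1.77 to -0.91, adjusted p = 0.0065), in 15 of 15 alternative settings. At 6 h it was 2.7-fold higher than at 2 h (log2 change 1.43 ± 0.19, adjusted p = 0.0158, called in 12 of 14 alternatives). Against vector-ERt2 cells the 6 h difference was 0.09 with an interval of -0.34 to 0.52, which includes changes in either direction. A second Bnip3 probe set gave -1.27 at 2 h over vector and 1.23 at 6 h over 2 h. Bnip3l, a paralogous mitophagy receptor, read 10.56, 10.70 and 10.67 at 6 h and 9.91, 9.88 and 10.39 at 2 h, against 10.56, 10.70 and 10.79 in vector-ERt2 cells. It was 1.54-fold lower at 2 h than in vector-ERt2 cells (log2 change -0.62 ± 0.13, adjusted p = 0.0352), a call kept in 7 of 15 alternatives. Its difference of 0.58 between 6 h and 2 h did not pass (adjusted p = 0.067). Fam162a read 9.12, 9.48 and 9.46 at 6 h, 8.96, 9.20 and 9.23 at 2 h and 9.32, 9.33 and 9.36 in vector-ERt2 cells, and Higd1a read 7.34, 7.66 and 7.22 at 6 h, 7.37, 7.13 and 7.30 at 2 h and 7.30, 7.49 and 6.94 in vector-ERt2 cells. Neither of these genes for mitochondrial proteins, nor the adenylate kinase gene Ak4, passed a test in the inducible design.

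Ero1a, which encodes the oxidase that re-forms disulfide bonds in protein disulfide isomerase, showed the widest range of these genes in the inducible design. It read 10.48, 11.43 and 11.49 at 6 h and 9.43, 9.37 and 10.17 at 2 h in Ikaros-ERt2 cells, against 10.65, 10.87 and 10.76 in vector-ERt2 cells. Its 2 h values were all below the others, and 1 of the 6 h values lay below the vector range while the other 2 lay above it. Ero1a was 2.78-fold higher at 6 h than at 2 h (log2 change 1.47 ± 0.26, adjusted p = 0.03, called in 8 of 14 alternatives). The 2 h difference from vector-ERt2 cells was -1.10 ± 0.26 and did not pass in the main fit (adjusted p = 0.0629). P4ha1, the catalytic subunit of collagen prolyl 4-hydroxylase, read 8.56, 8.66 and 8.75 at 6 h, 8.22, 8.05 and 8.10 at 2 h and 8.37, 8.56 and 8.60 in vector-ERt2 cells. It was 1.44-fold higher at 6 h than at 2 h (log2 change 0.53 ± 0.09, adjusted p = 0.0276, called in 8 of 14 alternatives), and its 2 h difference from vector of -0.38 had an adjusted p of 0.0527. Plod1, a lysyl hydroxylase gene, gave changes between -0.05 and 0.01, and P4ha2 and Plod2 lay below the filter.

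Among the secreted factors, Vegfa read 8.21, 8.42 and 8.49 at 6 h and 8.07, 8.31 and 8.19 at 2 h in Ikaros-ERt2 cells, against 8.64, 8.90 and 8.59 in vector-ERt2 cells. All 6 Ikaros-ERt2 values were below the 3 vector values. At 2 h it lay 1.43-fold below vector (-0.52 ± 0.11, adjusted p = 0.034, called in 8 of 15 alternatives), and its change of -0.34 at 6 h did not pass (95% interval -0.57 to -0.10, adjusted p = 0.0983). Mif, a cytokine gene, read 12.64, 12.57 and 12.89 at 6 h, 12.35, 12.34 and 12.66 at 2 h and 12.64, 12.70 and 12.72 in vector-ERt2 cells. Stc2, which encodes a secreted glycoprotein, had 2 h values of 6.75, 6.94 and 6.98, against 7.13, 7.39 and 7.31 in vector-ERt2 cells. It was called at 2 h with the block and not in the main fit. Egfl7 read 6.56, 6.32 and 6.32 at 6 h, 6.37, 6.52 and 6.21 at 2 h and 6.37, 6.40 and 6.02 in vector-ERt2 cells, with overlapping groups. Adm, a vasodilator peptide gene, lay below the filter.

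The membrane carbonic anhydrases, which hydrate carbon dioxide outside the cell, were lower in Ikaros-ERt2 cells at both times. Car12 read 6.87, 6.96 and 7.16 at 6 h and 6.81, 6.40 and 6.86 at 2 h, against 7.41, 7.67 and 7.55 in vector-ERt2 cells, with no overlap between the Ikaros-ERt2 and vector values. At 6 h its level was 1.46-fold below vector (-0.55 ± 0.12, adjusted p = 0.0275, called in 8 of 14 alternatives), and at 2 h 1.81-fold below (-0.86 ± 0.12, adjusted p = 0.00651, called in 15 of 15). Its difference of 0.31 between 6 h and 2 h did not pass (adjusted p = 0.302). Car9 read 5.74, 5.74 and 5.72 at 6 h and 5.74, 5.74 and 5.56 at 2 h, against 6.18, 5.91 and 6.12 in vector-ERt2 cells, also without overlap. At 6 h its level was 1.26-fold below vector (-0.34 ± 0.08, adjusted p = 0.0413) and at 2 h 1.31-fold below (-0.39 ± 0.08, adjusted p = 0.0452). Its level was close to the filter at 5.099, and its call was kept in 3 of 13 alternatives at 6 h and 3 of 14 at 2 h.

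Bhlhe40 and Ankrd37 were both lower at 2 h than in vector-ERt2 cells and higher at 6 h than at 2 h. Bhlhe40, a helix-loop-helix repressor, read 7.58, 7.81 and 7.42 at 6 h and 6.43, 6.94 and 6.74 at 2 h in Ikaros-ERt2 cells, against 7.41, 7.48 and 7.32 in vector-ERt2 cells. It was 1.62-fold lower at 2 h than in vector-ERt2 cells (log2 change -0.70 ± 0.13, adjusted p = 0.0219, called in 10 of 15 alternatives) and 1.87-fold higher at 6 h than at 2 h (0.90 ± 0.13, adjusted p = 0.0176, called in 10 of 14). Ankrd37, an ankyrin repeat gene known as a HIF target, read 7.55, 8.13 and 8.24 at 6 h and 6.79, 7.09 and 6.96 at 2 h, against 7.62, 7.84 and 7.87 in vector-ERt2 cells. It was 1.78-fold lower at 2 h than in vector-ERt2 cells (log2 change -0.83 ± 0.16, adjusted p = 0.0255, called in 8 of 15) and 2.04-fold higher at 6 h than at 2 h (1.03 ± 0.16, adjusted p = 0.0213, called in 10 of 14). For both genes every 2 h value was below the other 6, and the 6 h values overlapped the vector values. The 6 h difference from vector was 0.20 for each, with intervals of -0.08 to 0.49 for Bhlhe40 and -0.15 to 0.55 for Ankrd37.

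The remaining genes gave no call in this design in the main fit. Kdm3a, a histone demethylase gene, read 9.07, 9.20 and 9.32 at 6 h and 8.80, 8.81 and 8.84 at 2 h, against 9.08, 9.15 and 9.27 in vector-ERt2 cells, with a change of -0.35 at 2 h over vector (adjusted p = 0.0577) and of 0.38 at 6 h over 2 h (adjusted p = 0.061). Its 2 h values were below all others. Ddit4, an inhibitor of mTORC1 signalling, had 2 h values of 8.65, 9.01 and 8.62, against 9.53, 9.49 and 9.24 in vector-ERt2 cells, with a change of -0.66 (adjusted p = 0.0797). Jmjd6, an oxygen-dependent hydroxylase, read 7.89, 8.08 and 7.96 at 6 h, 7.75, 7.83 and 7.71 at 2 h and 7.99, 7.91 and 7.90 in vector-ERt2 cells, with changes between -0.17 and 0.21. Ndrg1, a stress-induced gene, read 7.06, 7.48 and 6.97 at 6 h, 7.19, 6.95 and 6.75 at 2 h and 6.97, 6.99 and 6.39 in vector-ERt2 cells, with overlapping groups in all 3 comparisons. The changes of Kdm4b and of Gbe1, the glycogen branching enzyme, lay between -0.12 and 0.29.

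**Figure D2:**
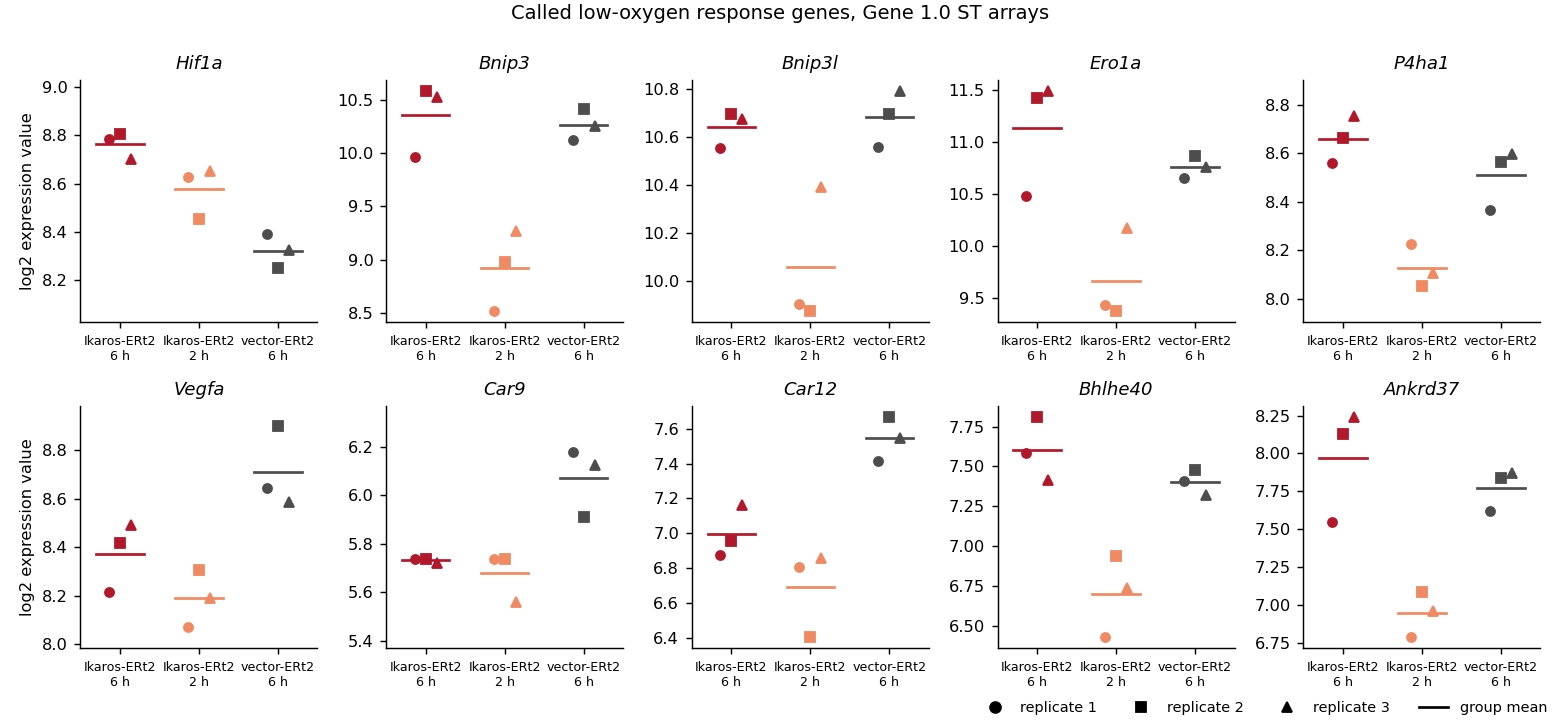
Log2 expression values of the genes called in the inducible design, with 1 point per array and replicates marked by shape, in Ikaros-ERt2 cells at 6 h, Ikaros-ERt2 cells at 2 h and vector-ERt2 cells at 6 h, from left to right, and the group mean as a line. The 2 h points of Bnip3, Bnip3l, Ero1a, P4ha1, Bhlhe40 and Ankrd37 sit below all other points, and so do those of Car12. For Car9, Car12 and Vegfa the 2 h and the 6 h points all sit below the vector points.

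At 48 h after infection, cells with wild-type Ikaros were compared with cells carrying the DNA-binding-deficient 159A protein. Of the 28 tested genes 10 were lower in Ikaros cells and 1 was higher, in a comparison where 8.47% of all genes were called lower and 6.38% higher, 14.8% in all. The lower genes were the mitochondrial genes Higd1a and Fam162a, Ero1a, the secreted factors Vegfa, Mif and Egfl7, the carbonic anhydrases Car9 and Car12, Jmjd6 and Ndrg1, and the higher gene was Arnt. The median log2 change was -0.21, against 0.00 for all genes. Of the 28, 12 had both Ikaros values below both 159A values and 8 had both above, where 30% and 27.7% of all genes were arranged so. These calls rest on 2 arrays a group. When any 1 of the 4 arrays was omitted limma called 0 of all tested genes, with 2168 to 3670 of them at an unadjusted p below 0.05, among them 9 to 16 of the group. With the replicate number as a block it likewise called 0 of all 10916 genes, with 4493 at an unadjusted p below 0.05, among them 17 of the 28. Without the filter 1 gene of the group was called. With each gene as the mean of its probe sets 5 were called.

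**Figure D3:**
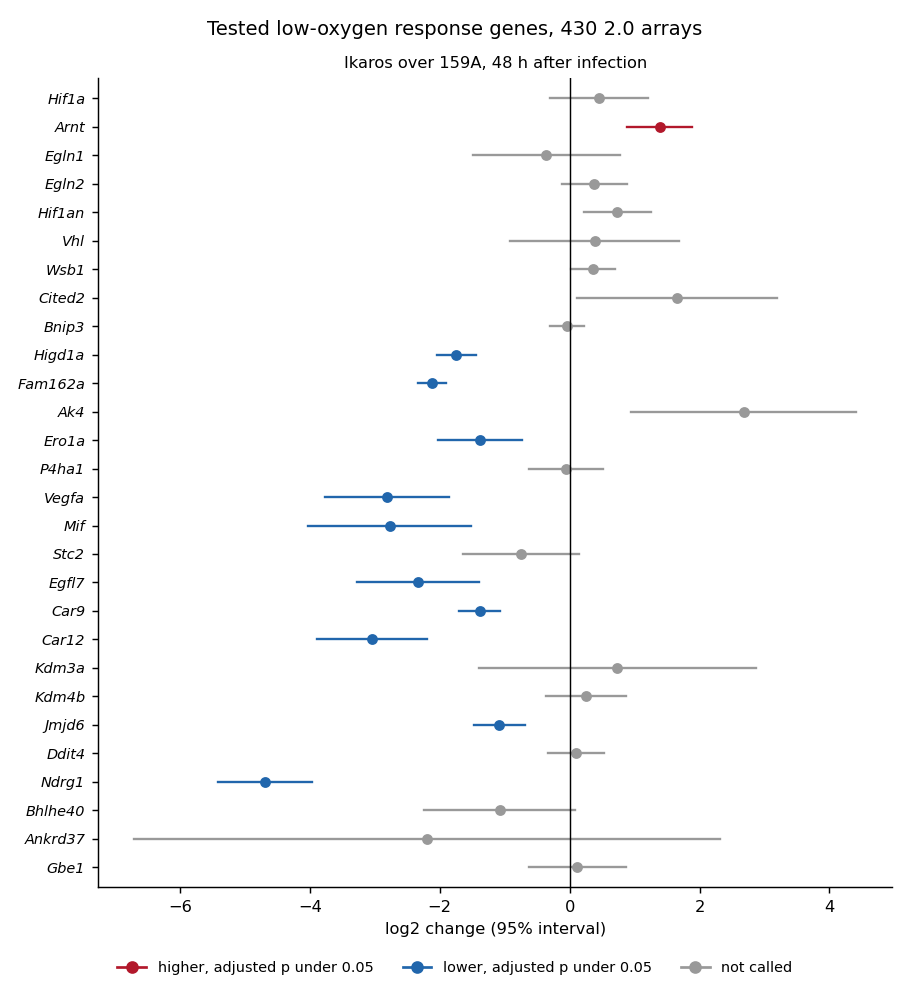
Log2 change of each tested gene at 48 h in Ikaros over 159A cells, as a point with its 95% interval, coloured by whether it was called at an adjusted p below 0.05. Ndrg1 at -4.69 and Car12 at -3.04 are the lowest called genes, and Arnt at 1.39 is the called gene on the higher side.

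Among the HIF subunits, Arnt read 9.07 and 8.73 in Ikaros cells and 7.50 and 7.53 in 159A cells. It was 2.61-fold higher (log2 change 1.39 ± 0.15, adjusted p = 0.0366), and all 3 Arnt probe sets that stood clear of the lowest values were higher. Hif1a read 11.59 and 11.46 in Ikaros cells and 11.33 and 10.82 in 159A cells, a difference of 0.45 that did not pass (adjusted p = 0.313). Another Hif1a probe set, with a mean of 10.2 in both groups, gave 0.0009, and a weaker one gave 0.38. Epas1 lay at the lowest values and was not tested. Of the sensors, Egln1 read 10.60 and 9.80 in Ikaros cells and 10.59 and 10.53 in 159A cells, Vhl read 8.42 and 7.50 in Ikaros cells and 7.59 and 7.57 in 159A cells, and Egln3 was at 2.19, the lowest value, on all 4 arrays. Hif1an read 9.97 and 9.64 in Ikaros cells and 9.12 and 9.02 in 159A cells, without overlap, and its difference of 0.74 had an adjusted p of 0.0855. Cited2, the coactivator competitor, read 14.94 and 14.20 in Ikaros cells and 13.32 and 12.51 in 159A cells (log2 change 1.66, adjusted p = 0.134).

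Of the mitochondrial genes, Higd1a, whose product lies in the inner membrane, read 11.50 and 11.34 in Ikaros cells and 13.13 and 13.19 in 159A cells. It was 3.35-fold lower (log2 change -1.74 ± 0.09, adjusted p = 0.0206), and all 3 of its probe sets were lower. Fam162a read 9.48 and 9.56 in Ikaros cells and 11.63 and 11.65 in 159A cells, 4.33-fold lower (-2.12 ± 0.06, adjusted p = 0.018), with both of its probe sets lower. Bnip3 read 11.58 and 11.59 in Ikaros cells and 11.56 and 11.70 in 159A cells, a difference of -0.04 with an interval of -0.30 to 0.22 (adjusted p = 0.755). Ak4 read 5.63 and 4.41 in Ikaros cells, against 2.42 and 2.26 in 159A cells, which is near the lowest value of 2.192. Ikaros cells were at least 3.55-fold higher by that bound, and the difference did not pass (adjusted p = 0.0768).

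Ero1a read 9.52 and 9.31 in Ikaros cells and 10.60 and 10.99 in 159A cells, 2.6-fold lower (log2 change -1.38 ± 0.20, adjusted p = 0.0496), with all 3 of its probe sets lower. P4ha1 overlapped between the groups, at 9.11 and 8.97 in Ikaros cells and 8.91 and 9.27 in 159A cells. Of the secreted factors, Vegfa read 4.60 on both arrays of Ikaros cells and 7.74 and 7.07 in 159A cells, 7.02-fold lower (-2.81 ± 0.29, adjusted p = 0.034). The Ikaros values were identical, so the spread of this gene came from the 159A arrays. Identical values can mark the lowest level a probe set gives. The Vegfa fold may then be a lower bound and its standard error too small. The other Vegfa probe set gave -1.20. Mif read 10.89 and 11.70 in Ikaros cells and 13.89 and 14.24 in 159A cells, 6.82-fold lower (-2.77 ± 0.38, adjusted p = 0.0471), on the 1 of its 3 probe sets that stood clear of the lowest values. Egfl7, a secreted protein gene best known from endothelial cells, read 4.91 and 4.25 in Ikaros cells and 6.94 and 6.89 in 159A cells, 5.05-fold lower (-2.34 ± 0.28, adjusted p = 0.0405). Other Egfl7 probe sets gave -2.30 and -0.66, and 1 read 2.976 on all 4 arrays. Stc2 read 7.54 and 7.31 in Ikaros cells and 7.88 and 8.46 in 159A cells and did not pass (adjusted p = 0.194).

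Car12 read 3.89 and 3.44 in Ikaros cells and 6.52 and 6.91 in 159A cells, 8.25-fold lower (log2 change -3.04 ± 0.26, adjusted p = 0.0291). Both Ikaros values lay more than 1 log2 unit above the lowest value of 2.192. Another Car12 probe set gave -0.63, with an Ikaros mean of 3.248 that was also its lowest value. The remaining Car12 probe set read 2.192 on every array. Whether a floor limits the Car12 fold was not tested. Car9 read 6.05 and 6.17 in Ikaros cells and 7.43 and 7.57 in 159A cells, 2.61-fold lower (-1.39 ± 0.09, adjusted p = 0.0242). In the main fits, Car9 and Car12 were the 2 of the 35 genes called lower in 3 comparisons. These were Ikaros-ERt2 with vector at 2 h and at 6 h, and Ikaros with 159A at 48 h. The 2 h and 6 h comparisons share the vector-ERt2 arrays, so their calls are not separate support. With the block limma did not call Car9 at 2 h (adjusted p = 0.06). Jmjd6 read 7.81 and 7.93 in Ikaros cells and 8.85 and 9.06 in 159A cells, 2.12-fold lower (-1.08 ± 0.12, adjusted p = 0.0367). Kdm3a read 11.22 and 12.51 in Ikaros cells and 10.74 and 11.53 in 159A cells, with overlapping groups.

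Ndrg1 gave the largest difference of the group at 48 h. It read 6.43 and 6.27 in Ikaros cells and 10.80 and 11.28 in 159A cells, 25.9-fold lower (log2 change -4.69 ± 0.22, 95% interval -5.42 to -3.97, adjusted p = 0.0197). All 5 of its probe sets were lower, by -5.03 to -0.94. In the inducible design the same gene had changes of 0.39 at 6 h and 0.18 at 2 h over vector, neither of which passed (adjusted p = 0.294 and 0.74). Bhlhe40 read 9.77 and 8.96 in Ikaros cells and 10.39 and 10.50 in 159A cells (-1.08, adjusted p = 0.167). Ankrd37 read 4.57 and 7.29 in Ikaros cells and 7.26 and 8.99 in 159A cells, and the wide spread left an interval of -6.71 to 2.31 around its difference of -2.20 (adjusted p = 0.391). Ddit4 read 12.11 and 11.87 in Ikaros cells and 11.82 and 11.96 in 159A cells, and Gbe1 overlapped as well.

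**Figure D4:**
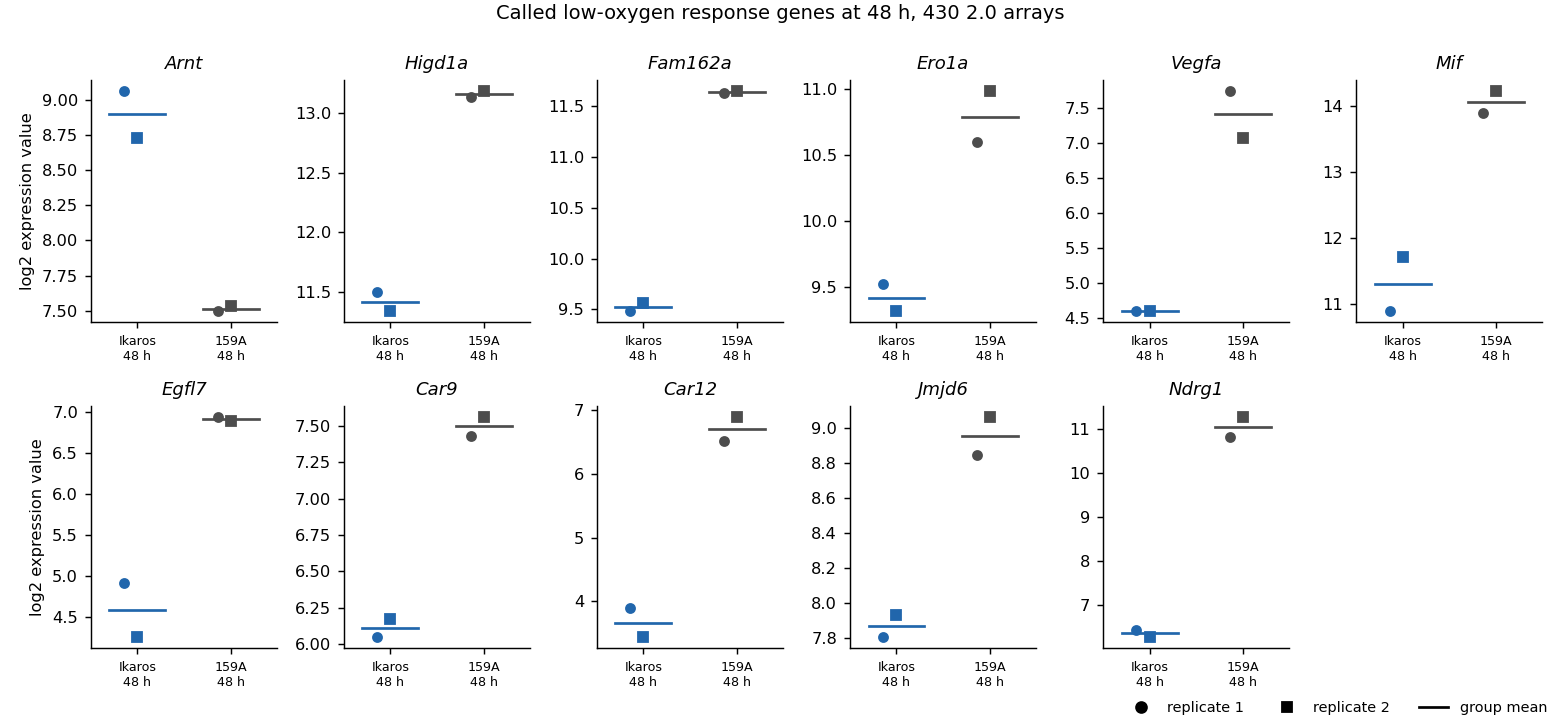
Log2 expression values at 48 h of the genes called in that comparison, with 1 point per array and replicates marked by shape, in Ikaros cells on the left and 159A cells on the right, and the group mean as a line. Both Ikaros points lie below both 159A points for 10 genes and above them for Arnt, and the Ikaros points of Vegfa coincide at 4.60.

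Across all 4 comparisons, in the main fits, 17 of the 31 tested genes were called at least once. Of all tested genes 1.86% were called at 2 h and 5.78% at 6 h over vector, 0.903% at 6 h over 2 h and 14.8% at 48 h. The share of all genes called at least once was not counted, so the 17 cannot be set against it. Of the 17, 10 were called in 1 comparison, 5 in 2 and 2 in 3. The 5 were Bnip3, Bhlhe40 and Ankrd37, called at 2 h over vector and at 6 h over 2 h, Ero1a, called at 6 h over 2 h and lower at 48 h, and Vegfa, called lower at 2 h and at 48 h. For Bnip3, Bhlhe40 and Ankrd37 both calls use the same 2 h arrays, so they are not separate support. The 48 h values come from another array type, other constructs and another reference, so their sizes were not tested against those of the inducible design.

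Other genes of the pathway were counted on lists. Of all tested genes 0.769% were called higher and 1.1% lower at 2 h over vector, and 2.58% and 3.2% at 6 h over vector. At 6 h over 2 h these shares were 0.376% and 0.527%, and at 48 h 6.38% and 8.47%. Of 26 further HIF targets, 0 were higher and 3 lower at 2 h over vector (the early response gene Ier3 at -1.14, the glycogen synthase gene Gys1 at -0.47 and the glucose transporter gene Slc2a3 at -0.44). At 6 h over vector 2 were higher, Ccng2 at 0.77 (adjusted p = 0.00201) and Narf at 0.37 (adjusted p = 0.0178), and Ier3 was lower at -1.01 (adjusted p = 0.00346). At 6 h over 2 h 4 were higher, among them Gys1 at 0.58 (adjusted p = 0.00947) and Ccng2 at 0.78 (adjusted p = 0.0158), and 0 were lower. At 48 h 2 of 26 were higher, Ccng2, a cyclin-like gene linked to cell cycle arrest, and Mxi1, a MYC antagonist, and 0 were lower. Of 13 further regulators of HIF, 0 were called in any comparison of the inducible design, with at most 2 at an unadjusted p below 0.05 by limma, where 1629 to 2130 of all genes had one, and the coactivator gene Ep300 was higher at 48 h.

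The glycolytic genes, kept apart from the 35, were counted for comparison. The shares of all genes are those of the paragraph above. Of 12 tested, 2 were lower at 2 h over vector, the hexokinase gene Hk2 at -1.17 (adjusted p = 0.00114) and Slc2a1 at -1.07 (adjusted p = 0.0051). At 6 h over vector 0 of 12 passed by limma, with 2 of the 12 and 2130 of all 11963 genes at an unadjusted p below 0.05. At 6 h over 2 h 3 were higher, Slc2a1 at 1.24 (adjusted p = 0.00896), Hk2 at 0.83 (adjusted p = 0.0176) and Pfkp, a phosphofructokinase gene, at 0.59 (adjusted p = 0.0294). At 48 h 7 of 12 were lower and 0 higher, among them Aldoa at -1.31 (adjusted p = 0.0194) and Gapdh at -1.01 (adjusted p = 0.0254). The median log2 changes of the 12 were -0.33 at 2 h and -0.02 at 6 h over vector, 0.31 at 6 h over 2 h and -1.38 at 48 h.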

How the data were processed

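Deposited log2 expression values of 13 arrays were used, 9 Gene 1.0 ST and 4 430 2.0. The authors deposited them already normalized. The submitters' processing notes name RMA, GCRMA, affy and limma, with no versions and and which of them made which table is not stated there. On the 430 2.0 arrays 36.7% of values lay within 0.01 of the lowest value, 2.192, as a floor would give. Genes were assigned through GEO's annotation of each platform: 21789 of 35556 (Gene 1.0 ST) and 34958 of 45101 (430 2.0) had 1 symbol and were kept.

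For each gene the probe set with the highest mean was taken, and the lowest 40% of genes by mean over all arrays of a type (below 5.099 and 2.383) were not tested. Within each array type limma 3.58.1 (R 4.3.3) was fitted to all arrays, with Benjamini-Hochberg adjustment over all tested genes and calls at an adjusted p below 0.05. Errors are standard errors of the fit, with 95% intervals. The number of arrays limits the precision. The scripts were tested on simulated data.

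The labels call the samples biological replicates of 1 line and do not say whether infections were separate, and p-values cover only the spread among these arrays, which may be technical. The labels number replicates in each group. Deviations of same-numbered 2 h and vector-ERt2 arrays from their group means correlated at 0.119, 0.128 and 0.235. From this hint in the data, and not from the labels, the numbers were taken as pairs in alternatives there. The main fit has no block. For that comparison values with the block stand beside the results whose call it changed. For the others the labels and correlations did not establish pairs, and their blocked counts are in the closing section.

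The genes and all lists were chosen with earlier results of these data known, so no list gives independent support. Values per array were given for each of the 35 genes called in at least 1 comparison and for Hif1a, Arnt, Vhl, Egln1, Egln3 and Hif1an. Values of uncalled genes were given where they lie near the threshold. Of other lists at most 5 called genes per comparison, by smallest p, were named. Alternatives concerned the filter, the normalization, the variance model, the block, the probe set rule, the arrays in the fit and leaving out each array.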

Additional observations from a re-analysis of the deposited data

Results flagged for a closer look

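For 5 genes the change over vector-ERt2 cells at 6 h differed from the change at 2 h. The vector-ERt2 arrays are shared, so this difference is the 6 h against 2 h contrast of the Ikaros-ERt2 arrays. It was 1.43 for Bnip3 (adjusted p = 0.0158), 1.47 for Ero1a (adjusted p = 0.03), 0.53 for P4ha1 (adjusted p = 0.0276), 0.90 for Bhlhe40 (adjusted p = 0.0176) and 1.03 for Ankrd37 (adjusted p = 0.0213), on the log2 scale by limma. All 3 values at 6 h were above all 3 at 2 h for each of the 5 genes. The 5 were picked by this contrast on the same values, so that order adds no support.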

How the results depend on the processing

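Of 26 calls, counted per gene and comparison, 0 changed sign under any alternative, and 3 were kept in all of them: Bnip3 and Car12 at 2 h and Hif1a at 6 h over vector. The other 23 were lost in at least 1 alternative. Of 95 uncalled values 31 changed sign in at least 1 alternative and 9 were called in at least 1. Without the filter on low genes the counts of called genes were 3 (against 7) at 2 h and 1 (against 3) at 6 h over vector, and 1 (against 11) at 48 h, where the median log2 change was -0.024 (against -0.21). With the lowest 60% of genes not tested the counts were 9 at 2 h and 2 at 6 h over vector, 7 at 6 h over 2 h and 8 at 48 h. The medians were then -0.19 (against -0.13) at 2 h and -0.0495 at 48 h. A fit of the 6 h and 2 h arrays alone called 0 genes (against 5), with 14 at an unadjusted p below 0.05 by limma. The mean of a gene's probe sets called 5 at 48 h. Leaving out single arrays gave 2 to 4 calls at 2 h over vector (medians -0.18 to -0.13), 1 to 2 at 6 h over vector (medians 0.05 to 0.12), 0 to 4 at 6 h over 2 h (medians 0.17 to 0.27) and 0 in each case at 48 h (medians -0.2343 to -0.0159), with fewer arrays in each fit. With the replicate number as a block, counts were 10 at 2 h, 2 at 6 h over vector, 7 at 6 h over 2 h and 0 at 48 h by limma, with 17 genes of the 28 at an unadjusted p below 0.05. Of all genes the blocked fits called 263, 673, 125 and 0 in these comparisons. Same-numbered arrays correlated at -0.10 to 0.11 for 6 h with vector and at -0.26 to 0.24 for 6 h with 2 h, which does not establish pairs. For the 48 h groups the correlation was 0.57, and with 2 arrays a group both numbers give the same value, so whether those numbers mark pairs was not settled. A fit of the 2 h and vector arrays alone with the block called 9 genes and was chosen after seeing the data. The causes of these shifts were not tested. Values near the 430 2.0 floor have no order, which limits Ak4 and the untested genes there. Some probe sets stayed flat above 2.192, such as an Egfl7 probe set at 2.976 on all 4 arrays. The identical Vegfa values in Ikaros cells may be limited in the same way, which was not tested.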

Other observations

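Genes of the Atf4 stress and amino acid response, which shares some regulators of the low-oxygen targets, were counted as well. In the inducible design 0 of 13 passed by limma in any comparison, with 4 at an unadjusted p below 0.05 at 2 h over vector, 0 at 6 h over vector and 4 at 6 h over 2 h. Over all 11963 tested genes 1691, 2130 and 1629 had such a p in these 3 comparisons. At 48 h 4 of 12 were lower in Ikaros cells than in 159A cells and 0 higher, with a median log2 change of -1.90. Of all genes 8.47% were called lower and 6.38% higher there. The serine synthesis gene Phgdh was at -2.88 (adjusted p = 0.018), the asparagine synthetase gene Asns at -3.11 (adjusted p = 0.0184) and the glutathione-degrading enzyme gene Chac1 at -4.50 (adjusted p = 0.0206).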
